A study of Mus musculus with 12 samples.

Results

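The change described here is that of wild-type mouse spermatocytes between early and late pachytene, the long middle stage of the first meiotic prophase. Late pachytene was represented by the cells of wild-type testes collected 360 h after retinoic acid that the authors' deposited cell table placed in its late pachytene class. Early pachytene was represented by the cells of wild-type testes collected 260 h after retinoic acid that the same table placed in its early pachytene class. These made 421 of the 929 kept cells of the study: 267 late cells (83, 91 and 93 in replicates 1, 2 and 3) and 154 early cells (25, 57 and 72). The study compared Zfp541 knockout with wild-type C57BL/6 mice at both times, with 3 libraries in each of 4 groups. All animals shared the same synchronisation of spermatogenesis: pups were given WIN 18,446, which blocks retinoic acid synthesis, for 7 days from 2 days after birth, and then received 1 injection of retinoic acid on day 8. Dissociated testis cells were picked singly by mouth pipette, and each cell's cDNA was barcoded, amplified and counted at its 3′ end with unique molecular identifiers (UMIs, which mark single cDNA molecules). Synchronised juvenile testes are a model of the first wave of spermatogenesis, so late cells also came from older animals than early cells, and age and stage cannot be told apart.

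In pachytene, homologous chromosomes are held together along their length by the synaptonemal complex while DNA breaks made earlier are repaired, some of them as crossovers. The X and Y chromosomes, which pair only over a short region, are silenced in a chromatin domain called the sex body. Spermatocytes also transcribe many genes whose products are used only after meiosis, in the acrosome and tail of the sperm, and several autosomal retrogene copies take over from silenced X-linked housekeeping genes.

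Counts were summed over the cells of a class in each library, and the library was the replicate. The class sums held 12871607, 14538367 and 27090882 gene UMIs in the late libraries and 1783543, 4190716 and 10879840 in the early libraries. The median cell had 154028, 151940 and 289197 gene UMIs in late libraries and 63791, 63834 and 151010 in early ones, a 2.22-fold difference (exact permutation p = 0.1, the smallest that 3 against 3 libraries allow; adjusted p = 0.2 over 6 such tests, all two-sided). The groups did not overlap in this measure, by a narrow margin. Relative to the synthetic spike-in RNAs added to each cell, late libraries had 19.6, 16.7 and 31.4 gene UMIs per spike-in UMI and early libraries 7.32, 10.4 and 19.2, a 1.92-fold difference in means of logs that left the groups overlapping (exact permutation p = 0.2, adjusted p = 0.3). Early replicate 3 stood apart: all 72 of its cells fell in the authors' cluster 3. That cluster otherwise held 1 cell of early replicate 2 and the early-class knockout cells of 260 h, whereas the other early wild-type cells fell in cluster 2. Late replicate 3 was the deepest library and carried spermatid transcripts, described with the markers. The class was itself derived by the authors from these cells, so the counts were also made for all kept wild-type cells by collection time alone. This leaves out the class but keeps the authors' choice of cells, and 421 of the 481 cells are those of the class sums. For the gene lists the counts by collection time are given where a count differs by more than 1.5 times and by at least 2 genes. That set adds pre-meiotic cells (2, 2 and 1 at 360 h; 24, 11 and 17 at 260 h) and 3 late-class cells of 260 h replicate 1. Separate animals are not stated for the replicates, and the p-values given here cover only library-to-library spread, part of which may be technical.

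Of 17010 genes tested, 3570 were higher (21.0%) and 2870 lower (16.9%) in late than in early cells at an adjusted p under 0.05, 37.9% in all (edgeR quasi-likelihood test, Benjamini-Hochberg adjustment over all genes). Changes of at least 2-fold made up most of these, with 3318 genes higher (19.5%) and 2701 lower (15.9%). The late and early libraries did not overlap for 53.4% of the genes tested, and 37.2% were both called and without overlap. By collection time alone, 3857 genes were higher (21.2%) and 3446 lower (19.0%) of 18159 tested, and 5830 of the 6440 genes called by class were called in the same direction. Both sets share most of their cells, so this overlap of calls is not an independent check. These values compare shares of the RNA of a cell. When libraries were scaled to the spike-ins instead, which gives a median log2 fold change over all genes of 0.55 in place of -0.05 (a shift of 0.61), 3472 genes rose (20.4%) and 638 fell (3.75%). Higher calls then made up 84.5% of all calls, against 55.4% in the share-based fit. No gene was called in opposite directions by the 2 scalings. A fall described below is therefore a fall relative to the other RNA of the cell unless the spike-in value is given. Of the 2870 genes called lower, 2 had a log2 fold change above 0 with spike-in scaling, and 638 were also called lower there. The other falls were kept in sign but did not pass the test with the spike-ins. The count of lower genes was 1380 without late replicate 2, 1748 without early replicate 2 and 1803 without early replicate 3, against 2870 with all libraries.

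Stage markers separated the groups. Ccna1, which encodes the germ-cell cyclin A1 (chromosome 3, 55045469 to 55055501, minus strand, mm10), had 50.5, 68.1 and 70.8 CPM in late libraries and 2.09, 2.30 and 2.35 CPM in early ones, where CPM is gene UMIs per 1e6 of the scaled library. The lowest late value was far above the highest early value, and the gene rose by 4.79 ± 0.38 on the log2 scale (± SE; edgeR adjusted p = 7.1e-05). Pgk2, the testis phosphoglycerate kinase (chromosome 17, 40207015 to 40208640, minus strand), had 213, 286 and 146 CPM in late libraries and 3.13, 13.4 and 5.45 CPM in early ones. It rose by 4.82 ± 0.52 (edgeR adjusted p = 0.000245), again with no overlap. Pou5f2, a POU-domain factor of spermatocytes (chromosome 13, 78024902 to 78026295, plus strand), had 168, 350 and 104 CPM in late cells and 1.04, 1.05 and 1.93 CPM in early cells. Its rise of 7.12 ± 0.59 (edgeR adjusted p = 8.12e-05) was also among the 15 largest of the whole comparison. The transcription factor gene Ovol2 rose by 5.09, Spata16 by 3.42, Insl6 by 2.68, Tbpl1 by 1.49 and Ldhc by 1.15 on the log2 scale. Piwil1, at 0.23, and Hspa2, at -0.24, did not pass the test.

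Several early pachytene markers went the other way. Dmc1, the meiotic recombinase (chromosome 15, 79561497 to 79605109, minus strand), had 6.40, 2.06 and 1.83 CPM in late libraries and 89.2, 44.6 and 139 CPM in early ones. The groups were far apart, and Dmc1 fell by 4.74 ± 0.63 on the log2 scale (edgeR adjusted p = 0.000589) and by 4.37 with spike-in scaling. Sycp1, the transverse filament of the synaptonemal complex (chromosome 3, 102818499 to 102936100, minus strand), had 247, 306 and 388 CPM in late cells and 2263, 2088 and 1514 CPM in early cells. It fell by 2.64 ± 0.27 (edgeR adjusted p = 0.000206), with no overlap, and by 1.89 with spike-in scaling. Meiob, a DNA-binding partner in meiotic repair, fell by 3.002, the axis gene Hormad1 by 1.59 and the surface protein gene Tex101 by 1.21. Sycp3 had a log2 fold change of -1.19 (edgeR adjusted p = 0.0626), since early replicate 1 was high at 1378 CPM while early replicates 2 and 3, at 447 and 403 CPM, were close to late replicate 3 at 378 CPM. Spo11 (0.72), Prdm9 (0.01) and Mei1 (-0.12) did not pass the test. Spo11 was higher in late libraries without overlap, at 152, 142 and 147 CPM against 51.6, 114 and 101 CPM in early ones. Of the 10 late pachytene markers, 8 rose and 0 fell, and of the 9 early pachytene markers, 5 fell and 0 rose. The authors derived the classes from these same cells, so the markers describe them and do not test them independently.

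**Figure D1:**
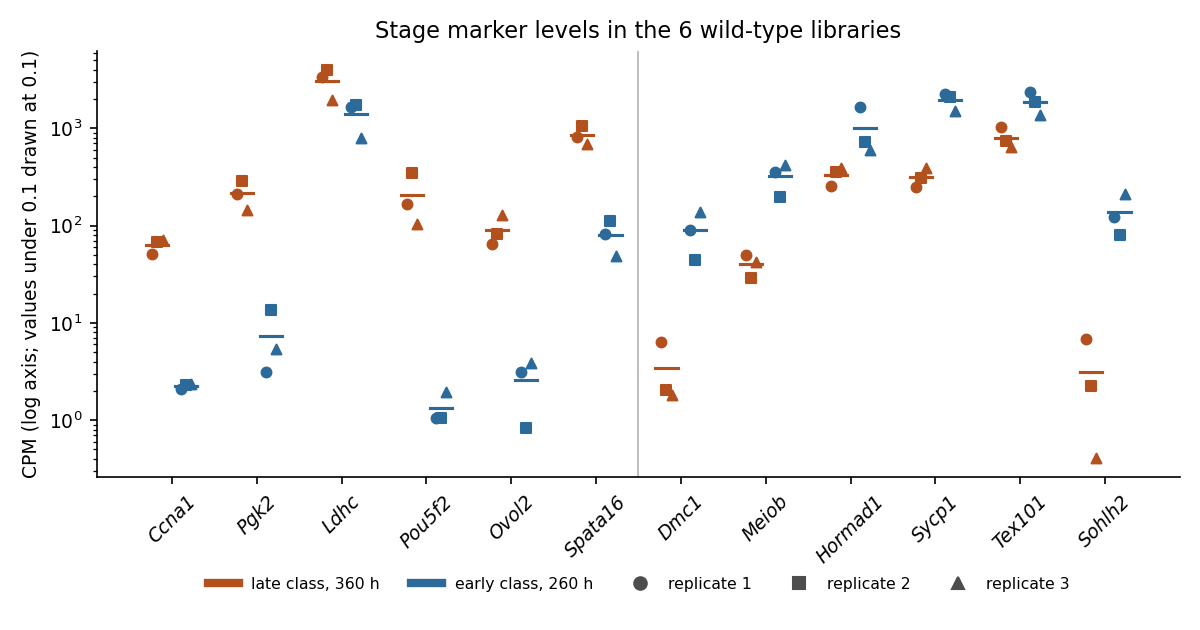
Levels of 12 stage markers in each wild-type library as CPM on a log axis, with late libraries left of early ones for each gene, a symbol for each replicate and a bar at the mean. The 6 genes on the left, from Ccna1 to Spata16, are higher in all 3 late libraries. The 6 on the right, from Dmc1 to Sohlh2, are lower in all 3 late libraries. The 12 were chosen from the called markers, and Piwil1, Hspa2, Spo11, Prdm9, Sycp3, Mei1, Stra8 and Kit, which did not pass the test, are not drawn.

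Transcripts of round spermatids, the cells that follow meiosis, were present in late replicate 3. Tnp2, a nuclear transition protein, had 31, 55 and 594 UMIs in late libraries and 0 in each early library, at least 12.7-fold higher on average against a floor of 3 UMIs per early library, and at least 4.24-fold without late replicate 3. A single cell of late replicate 3 held 314 of its 594 UMIs (52.9%), and 84 of its 93 cells had at least 1. Acrv1 had 3, 3 and 968 UMIs in late libraries and 0, 0 and 1 in early ones, and Tnp1 had 4, 1 and 828 against 2, 3 and 3. The acrosome gene Spaca1 had 1.15, 1.19 and 46.7 CPM in late libraries and 6.78, 16.1 and 33.7 CPM in early ones, with 27.4% of its UMIs in late replicate 3 held by 1 cell. The spermatid kinase gene Tssk1 had 10.8, 12.8 and 40.4 CPM in late libraries and 0, 0.838 and 0.67 CPM in early ones and rose by 5.11, while Tssk6 (-1.32) did not pass the test. The part of spermatid RNA in the results was not tested, and list counts without late replicate 3 are given by the same rule as those by collection time.

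The largest increases were in genes with little RNA in early cells, which a ranking by log2 fold change favours. The 15 largest with at least 20 CPM on average were, in order, Ifitm7, Slc25a2, Cfap73, Fam20a, Prss21, Prss39, Lypd5, Ccdc7a, Pou5f2, Abca14, Zbtb42, Mesp1, Toporsl, Tmem202 and Ccdc7b, with log2 fold changes from 8.81 down to 6.83. Each was called in all 6 fits that left out 1 library. Mesp1, a basic helix-loop-helix factor known from heart mesoderm (chromosome 7, 79792241 to 79793788, minus strand), had 546, 699 and 538 CPM in late libraries and 7.82, 3.56 and 4.78 CPM in early ones. This change from a low to a high level was uniform over libraries (log2 fold change 6.87 ± 0.37; edgeR adjusted p = 2.72e-05). Ifitm7, of the interferon-induced transmembrane family, had 76.7, 122.9 and 46.2 CPM in late cells and at most 0.522 CPM in an early library. Abca14, an ABC transporter, had 209, 240 and 192 CPM in late cells and 2.61, 2.09 and 1.01 CPM in early cells. Cfap73, a cilia- and flagella-associated protein, had 56.3, 115 and 74.7 CPM in late cells and 0.522, 0 and 0.419 CPM in early ones. Ccdc7a and Ccdc7b are near-identical copies whose counts may share reads.

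The largest decreases, over the same minimum level, were in Mdk, Sohlh2, Ccdc152, Rad51ap2, Syngr2, Cd82, Arhgef25, Zfp820, Ggh, Dmc1, Top2b, Wtip, Dicer1, Ktn1 and Pbx2, with log2 fold changes from -6.08 to -4.39. Each of these was also called in all 6 fits that left out 1 library. Sohlh2, a transcription factor of differentiating spermatogonia (chromosome 3, 55182028 to 55209957, plus strand), had 6.81, 2.22 and 0.407 CPM in late libraries and 123, 80.2 and 209 CPM in early ones. It fell by 5.49 ± 0.87 (edgeR adjusted p = 0.00137) with a wide gap between the groups. Mdk, the growth factor midkine, had 2.96, 0.952 and 0.366 CPM in late cells and 44.9, 56.5 and 176 CPM in early cells. Dicer1, the RNase that cuts small RNA precursors, had 8.21, 2.93 and 3.135 CPM in late cells and 74.1, 70.3 and 169 CPM in early cells. Top2b, a DNA topoisomerase, had 11.001, 4.52 and 7.65 CPM in late cells and 129.9, 116 and 314 CPM in early cells. Early replicate 3 was the highest of the early libraries in most of these genes.

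Gene groups split by role. The lists held 615 genes, of which 554 were tested, and each count below can be read against 21.0% higher and 16.9% lower of all genes tested. Medians are of log2 fold changes over the tested members, beside -0.05 over all genes.

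**Figure D2:**
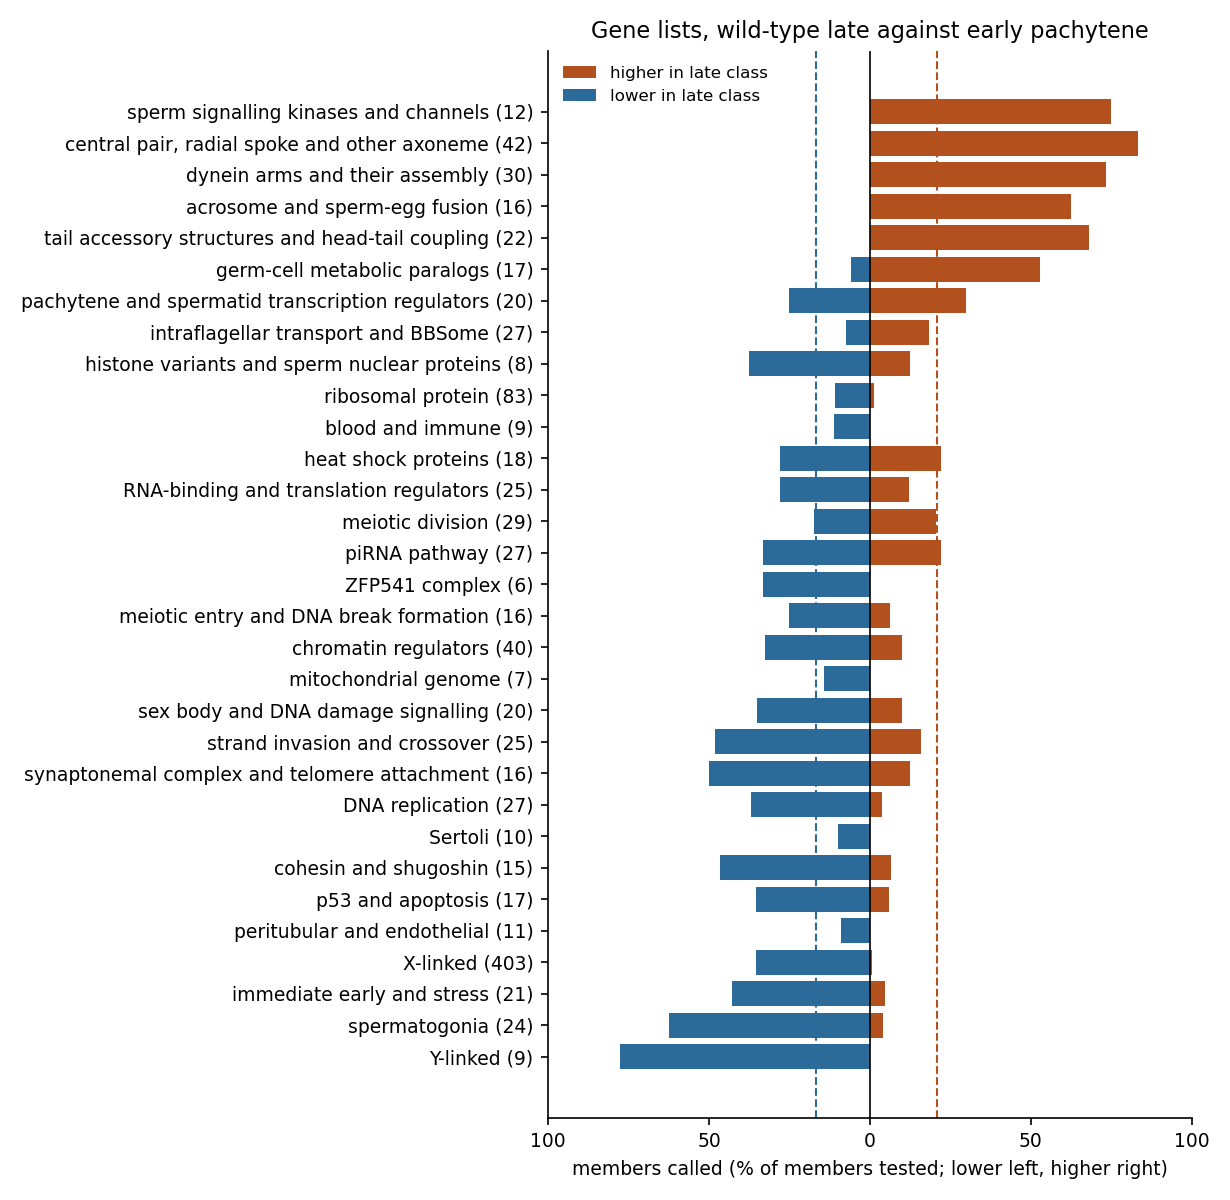
For each gene list (number tested in brackets), the percent of tested members called higher (to the right) and lower (to the left) in late against early wild-type cells, in order of the median log2 fold change, with dashed lines at 21.0% and 16.9%, the shares of all genes tested. Lists of sperm structures lie on the higher side and lists of recombination, cohesion, spermatogonia and X-linked genes on the lower side.

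Of 25 genes of strand invasion and crossover formation, 12 fell, 4 rose and 9 were not called, with a median of -0.90 (-0.15 with spike-in scaling, where 6 fell and 3 rose). Hfm1, a DNA helicase of crossover formation, had 72.2, 68.5 and 75.2 CPM in late libraries and 293, 238 and 253 CPM in early ones. Its replicates were tight and the groups well apart (log2 fold change -1.86 ± 0.23; edgeR adjusted p = 0.00045). Mnd1, which helps load the recombinase, had 3.94, 3.73 and 8.47 CPM in late cells and 152, 43.1 and 107 CPM in early cells, and fell by 4.21 on the log2 scale. Msh4, of the complex that stabilises crossover intermediates, fell by 3.20 and the ring finger gene Rnf212b by 3.74. In the other direction, Prr19, a crossover factor, had 190.1, 224 and 124 CPM in late cells and 52.7, 48.2 and 48.7 CPM in early cells and rose by 1.85. Mus81, a nuclease of an alternative crossover route, rose by 2.23, and Psmc3ip, the partner of Mnd1 in recombinase loading, rose by 0.89. Psmc3ip was called in 2 of the 6 fits that left out 1 library. Among genes of meiotic entry and break formation, 4 of 16 fell and 1 rose, and the median was -0.45 but 0.32 with spike-in scaling, where 1 fell and 1 rose. Hormad2, an axis protein that monitors synapsis, had 19.0, 17.8 and 29.2 CPM in late cells and 179.9, 157 and 224 CPM in early cells and fell by 3.09. Ythdc2, an RNA-binding protein of meiotic entry, fell by 1.70 and the histone reader Zcwpw1 by 1.91, while Ccdc36 (IHO1), which supports break formation, rose by 1.24.

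Structural genes of the chromosome axis did not move as a block. Of 16 genes of the synaptonemal complex and telomere attachment, 8 fell and 2 rose, with a median of -0.95 (-0.29 with spike-in scaling, where 2 fell and 2 rose). The counts were 6 lower and 4 higher without early replicate 3 and by collection time alone, and 7 lower and 4 higher without late replicate 3. The central element gene Syce2 had 58.3, 52.98 and 107 CPM in late libraries and 362, 244 and 385 CPM in early ones and fell by 2.18. Tex12, of the same element, fell by 1.99, 4930447C04Rik by 2.58 and the telomere anchor Majin by 1.39. Syce1, also of the central element, had 906, 1220.1 and 787 CPM in late libraries and 519, 380.4 and 276 CPM in early ones. It thus went the opposite way to Syce2 with no overlap in either gene, rising by 1.31 ± 0.29 (edgeR adjusted p = 0.00709). Terb1, which links telomeres to the nuclear envelope, rose by 1.32. Of 15 cohesin and shugoshin genes, 7 fell and 1 rose (median -1.12, and -0.31 with spike-in scaling, where 1 fell), while 3 fell without early replicate 3 and 4 without late replicate 3. Sgo1, a protector of centromeric cohesion, had 4.598, 4.92 and 3.22 CPM in late cells and 24.5, 19.9 and 27.9 CPM in early cells and fell by 2.51. The core cohesin gene Smc3 fell by 2.09 and the cohesin regulator Pds5a by 1.12. The meiotic kleisin Rad21l fell by 3.15, from few UMIs, while the cohesin loader Nipbl rose by 1.15.

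Of 20 genes of the sex body and DNA damage signalling, 7 fell and 2 rose (median -0.77, and -0.08 with spike-in scaling, where 0 fell). By collection time alone 4 fell and 1 rose. Rnf168, a ubiquitin ligase of the damage response, had 118, 125 and 131 CPM in late libraries and 24.5, 20.3 and 25.5 CPM in early ones. It rose by 2.41 ± 0.27 with tight replicates (edgeR adjusted p = 0.000276). Mdc1, which spreads the damage signal over the sex chromosomes, had 209, 180.0 and 229 CPM in late cells and 466, 401 and 445 CPM in early cells and fell by 1.08. Topbp1, an activator of the ATR kinase, fell by 1.73, and the X-linked polycomb-family gene Scml2 fell by 2.37. Each of the last 3 falls was smaller with spike-in scaling and was not called there.

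Genes of the sperm tail rose together. Of 30 dynein arm and assembly genes tested, 22 rose and 0 fell, with a median of 1.96, and with spike-in scaling 24 rose. Dnah12, an inner-arm dynein heavy chain, had 382, 578 and 367 CPM in late libraries and 32.3, 24.7 and 15 CPM in early ones. Every late library was above every early one, and the gene rose by 4.23 ± 0.37 (edgeR adjusted p = 9.72e-05). The heavy chain Dnah10 rose by 4.62, the assembly factor Dnaaf1 by 2.996 and Wdr63, a dynein intermediate chain, by 2.34. Of 42 other axoneme genes, including the central pair and radial spokes, 35 rose and 0 fell (median 2.09), and 38 rose by collection time alone. Cfap161 had 192, 310.1 and 204 CPM in late cells and 14.1, 13.2 and 6.70 CPM in early cells, a rise of 4.42 with no overlap. Cfap53 rose by 4.43, Lrrc23 by 3.01 and the radial spoke gene Rsph9 by 2.44. Of 22 genes of tail accessory structures and head-tail coupling, 15 rose and 0 fell (median 1.45). Tekt3, a filament protein of the tail (chromosome 11, 63061654 to 63094964, plus strand), had 217, 276 and 147 CPM in late cells and 5.22, 1.47 and 1.17 CPM in early cells and rose by 6.68 ± 0.58 (edgeR adjusted p = 9.76e-05). Tekt2 rose by 3.54, Tekt5 by 3.78 and the septin ring gene Sept12 by 3.95. Transport genes that build cilia in most cells moved less: of 27 genes of intraflagellar transport and the BBSome, 5 rose and 2 fell, with a median of 0.22. Ift46, Ift43 and Ift140 rose by 1.51, 1.32 and 1.63, and Bbs5 fell by 1.12. By collection time alone 10 of these rose and 0 fell, and 0 also fell with spike-in scaling or without early replicate 3.

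Acrosome and sperm-signalling genes moved with the tail genes where they were measured. Of 27 acrosome and sperm-egg fusion genes, 16 were tested, and 10 rose and 0 fell (median 1.63). Adam3, a sperm surface protein needed to reach the egg (chromosome 8, 24677225 to 24725852, minus strand), had 668, 741 and 427 CPM in late libraries and 13.0, 19.3 and 9.89 CPM in early ones. Late libraries were far above early ones (log2 fold change 5.45 ± 0.38; edgeR adjusted p = 6.28e-05). Zpbp2, a zona pellucida-binding protein, rose by 3.82, Dpy19l2, needed to form the acrosome, by 2.83, the proacrosin-binding Acrbp by 3.06 and the protease gene Acr by 2.05. Of 12 tested sperm kinases and channels, 9 rose and 0 fell (median 2.71). Catsperz, a subunit of the sperm calcium channel, had 1059, 1268 and 707 CPM in late cells and 69.9, 85.2 and 29.2 CPM in early cells and rose by 4.05. The channel subunits Catsperd and Catsperb rose by 3.36 and 2.63, and the soluble adenylyl cyclase gene Adcy10 rose by 3.42. The pore-forming subunit genes differed among themselves: Catsper2 rose by 1.05, whereas Catsper1, Catsper3 and Catsper4 had too few UMIs outside late replicate 3 to be tested. Catsper1 had 0, 1 and 141 UMIs in late libraries and 0 in each early one. Catsper3 had 0, 2 and 382 UMIs in late libraries and 0, 1 and 1 in early ones, and Catsper4 had 6, 4 and 280 in late libraries and 0 in each early one. Single cells of late replicate 3 held 45.4%, 43.7% and 33.9% of its UMIs of these 3 genes. Members of these lists below the count filter were not tested, so the counts describe only the members that passed.

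Promoters were searched for 3 short motifs in the 300 bases around the RefSeq start (250 before, 50 after; GRCm38.p6), on either strand, in 11403 tested genes that had an entry. The full cAMP response element, TGACGTCA, the site of CREB-family factors such as the spermatid activator CREM, was in 2.89% of promoters of genes that rose, 3.10% of those of genes that fell, 3.18% of those tested and 1.88% of all 27025 in the table. The share was thus alike in both directions. The letters GCAGTT, a core of MYB-type sites such as those of the pachytene regulator MYBL1, were in 17.6% of promoters of genes that rose, 11.9% of those that fell and 13.1% of those tested. The letters GTTGCC, a partial site of RFX factors, which act on cilia genes, were in 15.03% of promoters of genes that rose, 11.8% of those that fell and 13.3% of those tested. A match is only a match of letters and was not tested as a site. Among the genes named here, the promoters with the response element in the 3 genes of smallest p are shown as the 250 bases before the start, with the element in capitals. That of Wdr63, which rose, is on the minus strand at chr3:146108037-146108286, with the element's first base at -164. That of Mcm5, a replication gene that fell, is on the plus strand at chr8:75109259-75109508, with the element at -99. That of Btg2, an early-response gene that fell, is on the minus strand at chr1:134079156-134079405, with the element at -166.
Wdr63: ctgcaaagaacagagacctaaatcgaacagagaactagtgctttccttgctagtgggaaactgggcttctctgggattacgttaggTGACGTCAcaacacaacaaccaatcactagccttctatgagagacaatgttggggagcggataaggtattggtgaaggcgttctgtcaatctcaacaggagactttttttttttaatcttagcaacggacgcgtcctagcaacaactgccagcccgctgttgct
Mcm5: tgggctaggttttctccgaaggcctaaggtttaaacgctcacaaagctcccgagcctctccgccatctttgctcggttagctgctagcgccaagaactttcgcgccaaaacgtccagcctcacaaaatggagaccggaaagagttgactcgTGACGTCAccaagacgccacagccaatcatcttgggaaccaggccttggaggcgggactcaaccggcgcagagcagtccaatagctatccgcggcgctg
Btg2: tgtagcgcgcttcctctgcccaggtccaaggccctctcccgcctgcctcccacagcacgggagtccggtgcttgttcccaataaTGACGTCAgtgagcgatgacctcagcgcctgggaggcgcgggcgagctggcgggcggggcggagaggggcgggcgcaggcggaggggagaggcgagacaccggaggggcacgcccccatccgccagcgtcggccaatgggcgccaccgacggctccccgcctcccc

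Regulators of transcription moved in both directions. Of 20 pachytene and spermatid transcription regulators, 6 rose and 5 fell, with a median of 0.23 (0.74 with spike-in scaling, where 6 rose and 2 fell), and 6 rose and 3 fell without early replicate 3. Besides Pou5f2, Ovol2 and Tbpl1, Gtf2a1l, a germ-cell subunit of the general factor TFIIA, had 299, 366 and 239.5 CPM in late libraries and 80.3, 74.1 and 75.8 CPM in early ones and rose by 1.97 ± 0.25 (edgeR adjusted p = 0.000485). Ovol1 rose by 3.25. Tcf12, an E-protein, had 4.105, 2.93 and 3.58 CPM in late cells and 49.5, 48.2 and 50.4 CPM in early cells. Its early libraries were nearly equal and the gene fell by 3.797 ± 0.36 (edgeR adjusted p = 0.000135). Btbd18, a factor of pachytene piRNA transcription, fell by 3.30, the X-linked Taf7l by 2.04, and Mybl1, the master regulator of pachytene genes, by 0.80. Mybl1 was called in 1 of the 6 fits that left out 1 library.

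Of 29 genes of the meiotic divisions, 6 rose and 5 fell, and the median was -0.34 but 0.31 with spike-in scaling, where 6 rose and 0 fell. Aurkc, the germ-cell aurora kinase, had 112, 145 and 64.5 CPM in late libraries and 2.09, 9.84 and 9.47 CPM in early ones, with no overlap, and rose by 3.82. Its partner Birc5 rose by 1.13, and Fbxo43, which restrains the anaphase-promoting complex, by 1.25. Cdk1, the division kinase, had 74.9, 92.9 and 74.2 CPM in late cells and 204, 139 and 244 CPM in early cells and fell by 1.28, and its cyclin gene Ccnb1 fell by 1.68. The cyclin genes Ccna1 and Ccnb1 thus moved in opposite directions.

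Of 17 tested germ-cell metabolic paralogs, 9 rose and 1 fell (median 1.15). Pgam2, a glycolytic mutase, had 1333, 1516 and 836 CPM in late libraries and 67.8, 83.7 and 24.5 CPM in early ones and rose by 4.40 ± 0.48 (edgeR adjusted p = 0.000245). Slc2a5, the fructose transporter, had 466, 589.5 and 321 CPM in late cells and 40.2, 60.1 and 27.0 CPM in early cells and rose by 3.44. The groups of both genes were far apart. Slc25a31, the germ-cell ADP/ATP carrier, fell by 1.29, although it belongs with the same list of testis isoforms. With spike-in scaling it was not called.

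RNA regulators moved in both directions. Of 27 piRNA pathway genes, 6 rose and 9 fell, and the median was -0.34 but 0.31 with spike-in scaling, where 4 rose and 2 fell. Tdrd6, a tudor protein of germ granules, had 688, 647 and 481 CPM in late libraries and 52.7, 72.7 and 41.9 CPM in early ones and rose by 3.44 ± 0.30 (edgeR adjusted p = 9.76e-05). Henmt1, which methylates piRNA ends, rose by 2.56. Fkbp6, a cochaperone of piRNA loading, had 64.9, 73.8 and 80.1 CPM in late cells and 523, 368 and 419 CPM in early cells and fell by 2.58. The helicase gene Mov10l1 fell by 2.24 and the PIWI gene Piwil2 by 2.01, with no overlap between groups, while Piwil1 was not called. Of 25 RNA-binding and translation regulators, 3 rose and 7 fell (median -0.32, but 0.30 with spike-in scaling, where 3 rose and 2 fell). Dazl, which binds messages of meiosis, had 134, 78.2 and 115 CPM in late cells and 1448, 978 and 1219.5 CPM in early cells. It fell by 3.48 ± 0.30 (edgeR adjusted p = 9.06e-05) and by 2.82 with spike-in scaling. Cpeb1, a regulator of polyadenylation, fell by 4.34, while the retrogene poly(A)-binding protein Pabpc2 rose by 4.01 and the testis poly(A) polymerase Papolb by 2.60.

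Of 40 chromatin regulators, 4 rose and 13 fell (median -0.51, but 0.03 with spike-in scaling, where 4 rose and 2 fell), and 7 fell without early replicate 3. Rnf2, a polycomb ubiquitin ligase, had 44.3, 44.3 and 83.7 CPM in late libraries and 188, 213 and 239.5 CPM in early ones and fell by 1.89. Ehmt1, a histone methyltransferase, fell by 3.19, Dnmt3a, a DNA methyltransferase, by 2.72, and the deacetylase gene Hdac3 by 1.74. Of 8 tested histone variants and sperm nuclear proteins, 1 rose and 3 fell (median -0.15, but 0.60 with spike-in scaling, where 2 rose and 0 fell), and 1 fell by collection time alone or without early replicate 3. The member that rose was Tnp2, and the testis histones Hist1h2ba and Hist1h2aa and the replacement histone gene H3f3b fell by 2.51, 2.44 and 0.82. Heat shock genes changed in both directions, with 4 of 18 higher and 5 lower, and a median of -0.28 that was 0.28 with spike-in scaling. Hspb9, a small testis heat shock protein, had 1560.0, 1927 and 936 CPM in late cells and 21.9, 7.33 and 21.1 CPM in early cells and rose by 6.47 ± 0.51 (edgeR adjusted p = 7.1e-05). The germ-cell chaperonin subunit Cct6b rose by 3.04, while the mitochondrial chaperonin genes Hspd1 and Hspe1 fell by 3.49 and 2.73.

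Genes of earlier germ cells were lower in late cells. Of 24 tested spermatogonial genes, 15 fell and 1 rose, with a median of -1.98 (-1.53 with spike-in scaling, where 5 fell). Without early replicate 3, 8 of them fell. Dmrt1, a factor that holds back meiosis, had 8.78, 4.36 and 2.81 CPM in late libraries and 39.6, 35.2 and 37.2 CPM in early ones and fell by 2.82. Uchl1, a marker of undifferentiated spermatogonia, fell by 1.95. Of the other pre-meiotic markers, Crabp1, Sohlh1, Zbtb16 and Dnmt3b fell by 2.72, 2.41, 2.31 and 1.59, and Kit (-1.89) and Stra8 (0.29) did not pass the test. Sohlh1, Zbtb16 and Dnmt3b were called in 1, 2 and 1 of the 6 fits that left out 1 library. Neither these genes nor Crabp1 were called with spike-in scaling. The member that rose was Dmrtb1, which in mouse acts at the entry into meiosis, with 414, 617 and 502 CPM in late cells and 44.9, 39.6 and 82.5 CPM in early cells, a rise of 3.19. The summed level of the list was 701, 848 and 828 CPM in late libraries and 874, 827 and 999.6 CPM in early ones, which overlapped. Of 27 DNA replication genes, 10 fell and 1 rose (median -1.02, and -0.45 with spike-in scaling, where 4 fell and 2 rose). Mcm3, of the replicative helicase, had 23.1, 14.3 and 11.6 CPM in late cells and 140.3, 133 and 165 CPM in early cells and fell by 3.16, Mcm5 by 2.33, the single-strand binding protein gene Rpa2 by 1.98 and Top2a by 1.24.

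Of 17 tested p53 and apoptosis genes, 6 fell and 1 rose (median -1.25, and 3 fell with spike-in scaling or without late replicate 3). The cell death genes Pmaip1, Apaf1 and Bax fell by 3.64, 3.58 and 3.0, and Bak1, of the same family as Bax, rose by 3.804, with 14.2, 16.3 and 10.8 CPM in late libraries and 0, 2.09 and 0.586 CPM in early ones. Of 21 tested immediate early and stress genes, which respond to dissociation, 9 fell and 1 rose (median -1.69, and -1.04 with spike-in scaling, where 2 fell), and 3 fell without late replicate 3. Btg2, Atf3 and Zfp36 fell by 2.57, 3.25 and 3.09, and Ddit3 rose by 2.58.

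Markers of testis somatic cells were measured beside these lists. Few were called, and the summed levels of the Sertoli and Leydig lists were lower in every late library than in every early one, while those of the other lists overlapped. Of 10 tested Sertoli genes, 1 fell (Clu, by 1.69), with summed levels of 161, 142 and 83.8 CPM in late libraries and 529, 202 and 220.1 CPM in early ones. Of 4 tested Leydig genes, 2 fell (Cyp11a1 and Nr5a1, by 5.33 and 3.37), with sums of 15.02, 9.28 and 14.7 CPM in late libraries and 62.6, 44.4 and 36.8 CPM in early ones, and the Leydig hormone gene Insl3 was at 0 throughout. Of 11 tested peritubular and endothelial genes, 1 fell (Col1a1, by 2.42), with sums of 62.0, 78.9 and 35.5 CPM in late libraries and 318, 216 and 31.7 CPM in early ones, and 5 fell without early replicate 3. Of 9 tested blood and immune genes, 1 fell (Cd68, by 1.90), with sums of 414, 275 and 7.04 CPM in late libraries and 687, 33.3 and 25.6 CPM in early ones. The high sums went with haemoglobin, whereas early replicate 2 had 0 UMIs of Hbb-bs and 0 of Hba-a1. Mitochondrial transcripts took 1.31% ± 0.25 of gene UMIs in late and 2.38% ± 0.68 in early libraries (SD, n = 3 each; exact permutation p = 0.1, adjusted p = 0.2). The part of somatic RNA in the falls described here was not tested.

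X-linked genes were far more often lower than higher. Of 403 tested, 142 fell (35.2%) and 3 rose (0.744%), with a median of -1.58 and of -0.86 with spike-in scaling, where 33 fell and 4 rose. By collection time alone 243 fell, without late replicate 3 78 fell, and without early replicate 3 103 fell. Each autosome, in contrast, had between 19.6% and 26.1% of its tested genes higher. X-linked genes took 0.179%, 0.135% and 0.208% of gene UMIs in late libraries and 0.582%, 0.372% and 0.359% in early ones (exact permutation p = 0.1, the smallest possible, and adjusted p = 0.2 over 6 tests). The groups did not overlap, and the share was small in both. The X-linked genes with the largest falls at a mean of at least 20 CPM were Gm14513, Gm364 and Fmr1nb. Gm14513 (X chromosome, 11684002 to 11684124, minus strand), had 2.46, 1.03 and 0.204 CPM in late libraries and 237, 157 and 100.04 CPM in early ones. Fmr1nb, a testis antigen gene, had 4.598, 1.82 and 6.64 CPM in late cells and 74.1, 27.6 and 108 CPM in early cells, a fall of 3.99. The 3 genes that rose, Fthl17-ps3, H2afb3 and Prame, lie in families with near-identical copies and averaged 12.2, 5.95 and 1.85 CPM in late cells and 1.80, 0.341 and 0.279 CPM in early cells. They were named after their values were seen. Of 9 tested Y-linked genes, 7 fell and 0 rose (median -2.54), 2 fell with spike-in scaling (median -1.71), and 4 fell without late replicate 3 or without early replicate 3. The Y-linked share of gene UMIs was 0.00354%, 0.00133% and 0.0135% in late libraries and 0.00981%, 0.00606% and 0.0136% in early ones. These groups overlapped (exact permutation p = 0.4, adjusted p = 0.4).

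**Figure D3:**
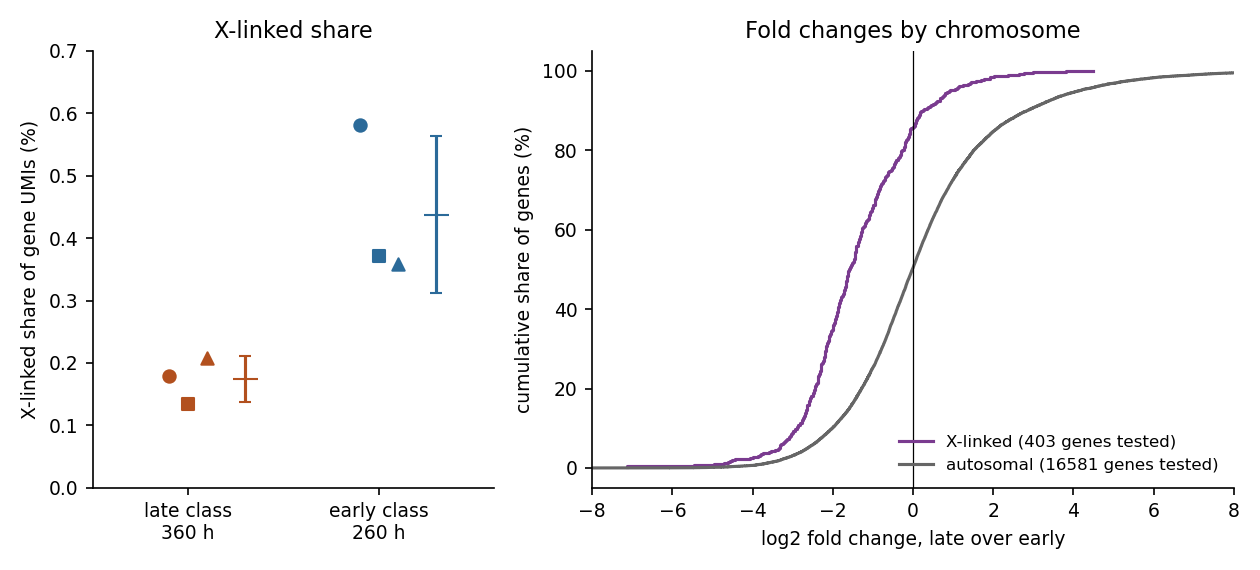
Left, X-linked share of gene UMIs in each wild-type library, with late libraries in the left group. The left panel also shows the mean and SD beside the points. Right, the cumulative share of tested genes at or under each log2 fold change (late over early), where the curve of the 403 X-linked genes lies left of the autosomal curve.

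Autosomal copies of X-linked genes did not all follow the same course. Of 14 X-linked and autosomal pairs, 12 X-linked members were tested, of which 4 fell and 0 rose, and 12 autosomal members were tested, of which 4 rose and 2 fell. With spike-in scaling the 4 autosomal rises were called, and 0 members of either kind were called lower. The autosomal copies that rose were Pgk2, Cetn1, Gk2 and Prps1l1. Prps1l1, a copy of a nucleotide synthesis enzyme (chromosome 12, 34984761 to 34986436, plus strand), had 755, 890.0 and 532 CPM in late libraries and 74.1, 105 and 57.7 CPM in early ones and rose by 3.20. Its X-linked relative Prps1 had 1.48, 1.51 and 1.83 CPM in late cells and 8.87, 4.19 and 6.62 CPM in early cells and fell by 2.00. Cetn1, a centrin, had 1679, 2022 and 1104 CPM in late cells and 351, 371 and 136 CPM in early cells and rose by 2.49, while X-linked Cetn2 fell by 1.88. The autosomal copies that fell were the ribosomal protein gene Rpl10l, by 0.77 with 238, 237 and 250.1 CPM in late and 296, 456 and 481 CPM in early libraries, and the splicing gene Rbmxl2, by 2.18. Their calls were the least stable, with Rpl10l called in 1 and Rbmxl2 in 2 of the 6 fits that left out 1 library. X-linked Rpl39 and Ddx3x fell by 2.43 and 2.38. The X-linked Rbmx (-2.30), G6pdx (-1.85), Rpl10 (-1.73), Pdha1 (-1.41), Utp14a (-0.96), Cstf2 (-0.83), Ubl4a (-0.81) and Ube2a (-0.11) did not pass the test. Nor did the autosomal Pdha2 (0.37), D1Pas1 (0.15), Rpl39l (-0.05), Ube2b (-0.34), Utp14b (-0.43) and Cstf2t (-0.44). Pgk1 had 4, 15 and 18 UMIs in late libraries and 3, 2 and 2 in early ones, too few to test. Members of a pair can share reads.

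**Figure D4:**
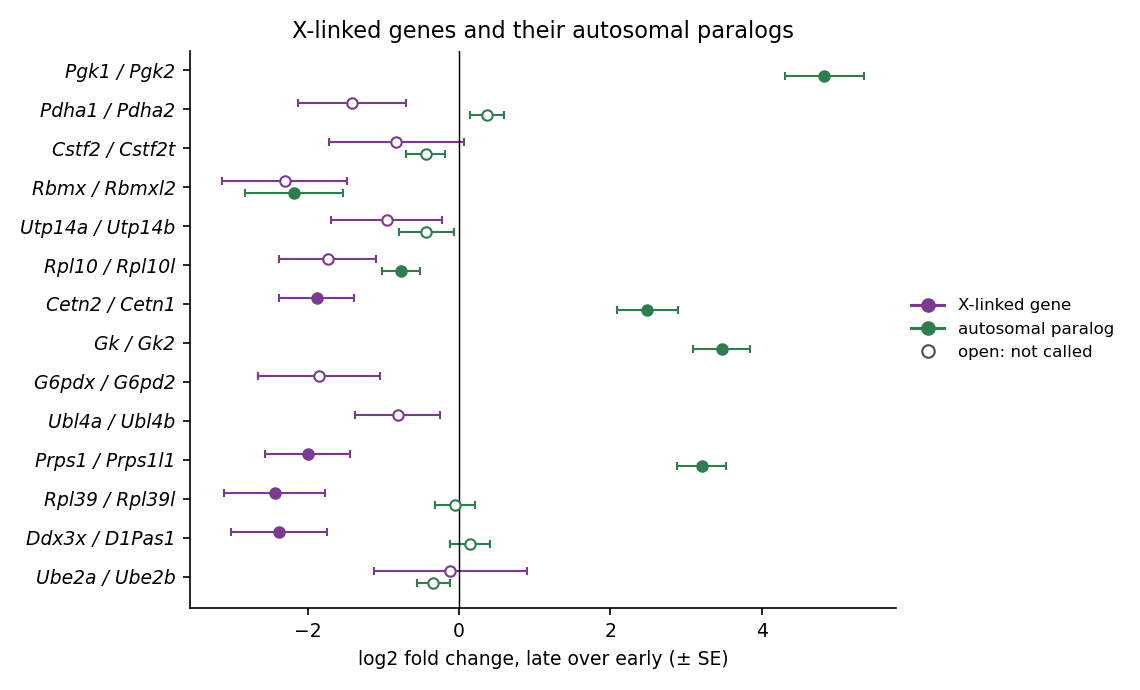
Log2 fold change, late over early wild-type cells, with SE, for the tested members of X-linked and autosomal gene pairs. Pgk2, Cetn1, Gk2 and Prps1l1 lie to the right of 0, and no X-linked member is called higher.

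Zfp541, the gene targeted in the knockout of the study, encodes a zinc finger protein that acts with histone deacetylases in pachytene. In wild-type cells it had 178, 148 and 156 CPM in late libraries and 64.2, 92.5 and 135 CPM in early ones, without overlap. The log2 fold change was 0.72 ± 0.30 (edgeR adjusted p = 0.0884), and without early replicate 3 it was 1.17 (edgeR adjusted p = 0.0151). Of the 6 genes of its complex, Hdac2 had 39.1, 22.7 and 50.3 CPM in late cells and 98.6, 121 and 204 CPM in early cells and fell by 1.92, and Trerf1 fell by 1.82. Hdac1 (0.05), Dnttip1 (-0.95) and the partner Kctd19 (0.63) did not pass the test. With spike-in scaling 0 of the 6 were called. Knockout libraries still had Zfp541 UMIs, at 165, 144.5 and 158 CPM in late and 139, 120 and 113 CPM in early ones (CPM scaled over 12 libraries). The deleted part of the gene is not given, so these 3′ counts do not check the knockout labels.

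Detection in single cells is given for Ccna1, Tekt3 and Dmc1, which had large called changes in the sums of these same cells. The shares therefore describe these changes and do not test them. When each cell was thinned to 40000 gene UMIs, a Ccna1 UMI was found in 78.3%, 87.9% and 86.0% of late cells and 16.0%, 3.51% and 11.1% of early cells. A Tekt3 UMI was found in 100%, 100% and 95.7% of late cells and 8.00%, 5.26% and 4.17% of early cells. Dmc1 had a UMI in 18.1%, 6.59% and 4.30% of late cells and 84.0%, 77.2% and 98.6% of early cells. Each of these shares separated the groups. Other called genes were not separated in this way, and a Sycp1 or Ldhc UMI was found in 100% of the cells of every library. The number of genes detected at this depth was 7293, 7038 and 7264 for the median late cell and 7206, 7872 and 7306.5 for the median early cell, with overlapping groups (exact permutation p = 0.4).

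Whether the stage change depended on Zfp541 was tested as the knockout change minus the wild-type change over 12 libraries. In the knockout, 361 cells were summed in the same way (77, 66 and 77 late-class cells at 360 h; 59, 50 and 32 early-class cells at 260 h), and the late cells of the 2 genotypes lay in different clusters of the authors (cluster 4 for knockout, cluster 5 for wild type). Of 18692 genes tested, the knockout change was more positive for 647 (3.46%) and more negative for 926 (4.95%), 8.42% in all. CPM in this comparison are scaled over all 12 libraries. Several genes that rose in wild type had a more negative change in knockout. Ccna1 had 4.14, 6.75 and 4.64 CPM in knockout late libraries and 1.89, 4.11 and 2.35 CPM in knockout early ones, and the difference of its log2 change from wild type was -4.22 ± 0.54 (edgeR adjusted p = 0.000259). Mesp1 had 16.1, 10.8 and 7.74 CPM in knockout late libraries and 8.03, 13.2 and 6.38 CPM in knockout early ones, so that its groups overlapped (difference -6.91). Differences of -5.43 for Ovol2, -5.08 for Aurkc, -5.54 for Tekt3, -3.16 for Prps1l1, -2.42 for Rnf168 and -2.11 for Pgk2 were also called. Adam3 was not called (difference -1.80 ± 0.73, edgeR adjusted p = 0.15), with 188, 70.4 and 70.9 CPM in knockout late and 2.36, 10.9 and 8.06 CPM in knockout early libraries.

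Genes that fell in wild type divided into those whose fall differed in knockout and those where no difference was called. Tcf12 had 109, 108 and 97.5 CPM in knockout late libraries and 68.8, 92.6 and 81.2 CPM in knockout early ones (difference 3.86 ± 0.33; edgeR adjusted p = 1.77e-05). Sgo1 had 80.2, 78.1 and 69.1 CPM in knockout late libraries and 61.2, 50.2 and 65.4 CPM in knockout early ones (difference 2.54), and Hfm1 had 523, 431 and 495 against 235, 336 and 213 CPM (difference 2.43). In each of these, all knockout late libraries lay above all knockout early ones. Differences of 3.32 for Cpeb1, 2.51 for Fkbp6, 2.06 for Tex12, 1.80 for Hormad2 and 1.22 for Sycp1 were called as well. Dmc1 had 6.01, 17.7 and 10.6 CPM in knockout late and 152, 129 and 105 CPM in knockout early libraries (difference 0.93 ± 0.71, edgeR adjusted p = 0.475). Sohlh2 likewise had a difference of 0.50 ± 1.01 that was not called. Of the strand invasion and crossover list, 10 of 25 genes had a more positive and 1 a more negative change in knockout, of the synaptonemal list 6 of 16 and 0, and of the 465 X-linked genes tested 3 and 0. With spike-in scaling 98 genes were more positive and 382 more negative.

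**Figure D5:**
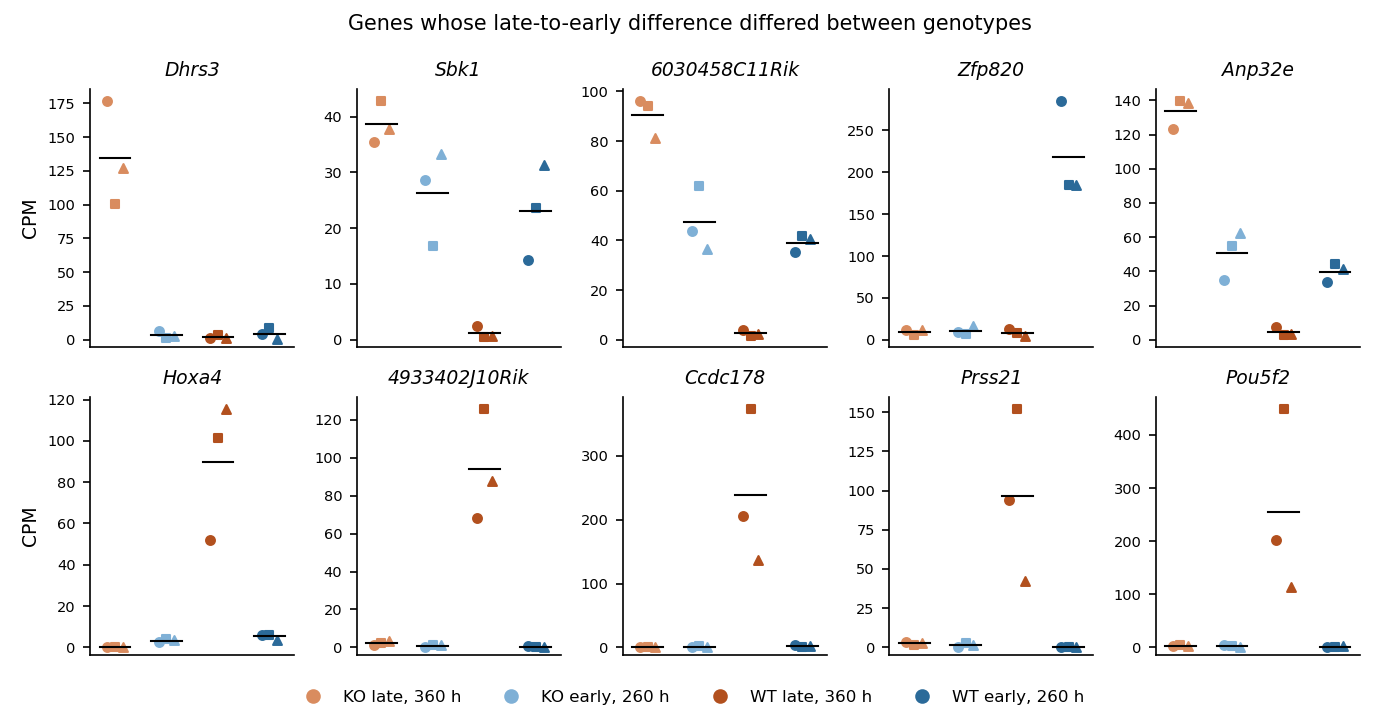
CPM in each library of the 4 groups (knockout late, knockout early, wild-type late, wild-type early, left to right; bar at the mean) for the 10 genes with the largest called genotype differences at a mean of at least 20 CPM. Pou5f2, Prss21 and Hoxa4 are high in wild-type late cells only among the 4 groups, and Dhrs3 is high in knockout late cells only.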

How the data were processed

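The deposited values were raw UMI counts per gene and cell barcode, 1 table for each of 12 libraries with 96 barcodes, made by modified Smart-seq2 with 3′ capture, per the labels' protocols. Tools named in the submitters' processing notes are STAR 2.5.3a, featureCounts 1.6.4 and UMI-tools 1.0.0, with build mm10. Settings, strand use, the cell filter and any doublet step are not given in the sources available. Counts of antisense genes and near-identical copies are uncertain for that reason. The 96 barcode sequences are plate barcodes shared by all 12 libraries. Cells were picked by hand, and doublets were neither called nor tested for here.

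Cells and classes came from the authors' deposited cell table. Counts were summed per library and class, leaving out 92 ERCC spike-ins, and tested by edgeR 4.0.16 in R 4.3.3 (filterByExpr, TMM, robust quasi-likelihood, 3 against 3 libraries; the genotype difference used 12 libraries). Calls used an adjusted p (Benjamini-Hochberg) under 0.05 in a two-sided test, and the common biological coefficient of variation was 0.453. CPM are gene UMIs per 1e6 of the TMM-scaled library. The fits were also run on simulated counts with a small set of changed genes, balanced between directions. Far more genes were called in these data, so that run does not check the scaling or the number of calls here. Library sizes differed, so early replicate 1, with 1783543 gene UMIs, is the least precise, and 1 UMI there is worth 0.522 CPM. Single values were compared by exact permutation (scipy 1.17.1). Alternatives were spike-in scaling, RLE size factors, DESeq2 1.42.0, limma 3.58.1 (voom), other filters, thinned cells, all kept cells by time, a replicate block, and leaving out each library.

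Genes were named by a rule: the 15 largest called changes each way (at least 20 CPM, no overlap, no Gm or Rik symbols), up to 4 called list members of smallest p, all tested stage markers, paralog pairs and members of the ZFP541 complex, 3 X-linked genes and up to 5 genotype differences each way. Other list members and the untested spermatid and paralog genes were added after their values were seen. The members and lists were chosen with earlier results of these data known. Promoter sequences are from RefSeq (GRCm38.p6).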

Additional observations from a re-analysis of the deposited data

Results flagged for a closer look

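The 10 genes below were picked out because their change from early to late cells differed between genotypes by a test of the difference itself (knockout change minus wild-type change, log2, edgeR quasi-likelihood test over 12 libraries, adjusted over 18692 genes). They are the called genes of largest difference each way at a mean of at least 20 CPM, with CPM scaled over the 12 libraries.

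More positive in knockout were Dhrs3 (6.22), Sbk1 (4.93), 6030458C11Rik (4.88), Zfp820 (4.61) and Anp32e (4.53). Dhrs3, a retinaldehyde reductase gene, averaged 135 ± 38.7 CPM in knockout late and 3.67 ± 2.80 CPM in knockout early libraries, against 2.06 ± 1.23 CPM in wild-type late and 4.59 ± 3.96 CPM in wild-type early libraries (SD, n = 3 each). It was thus high in 1 of the 4 groups. Zfp820 averaged 9.63 CPM in knockout late and 10.9 CPM in knockout early libraries, against 8.19 CPM in wild-type late and 218 CPM in wild-type early libraries. Its difference rests on a high level in wild-type early cells. Sbk1, 6030458C11Rik and Anp32e averaged 38.7, 90.5 and 134 CPM in knockout late cells, against 1.16, 2.54 and 4.61 CPM in wild-type late cells, and between 23.1 and 50.8 CPM in the early cells of either genotype.

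More negative in knockout were Hoxa4 (-7.79), 4933402J10Rik (-7.55), Ccdc178 (-7.30), Prss21 (-7.18) and Pou5f2 (-7.04). Hoxa4, a homeobox gene, averaged 0.243 ± 0.142 CPM in knockout late and 3.28 ± 0.877 CPM in knockout early libraries, against 89.7 ± 33.6 CPM in wild-type late and 5.36 ± 1.35 CPM in wild-type early libraries. The other 4 averaged between 0.646 and 3.45 CPM in knockout late cells, against 94.1 to 255 CPM in wild-type late cells. Ccdc178 was not called without knockout 260 h replicate 2.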

How the results depend on the processing

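Of 184 single-gene results, the 156 called ones kept their direction under the alternatives run. Of the 28 that did not pass the test, 13 turned sign under at least 1 alternative, 10 of them with spike-in scaling, and none was called after the turn. Prdm9 turned to -0.51 by collection time, and Hspa2, Spaca1 and Mei1 to 0.31, 0.51 and 0.93 with spike-in scaling. Spike-in scaling left 144 of the 184 on the same side of the threshold and ended the call of 40, and all kept cells by time left 168, with 8 gained and 8 lost. Spike-in scaling gave 638 lower genes, and leaving out 1 library gave 1380 to 2716 lower genes. The genotype difference, more positive, was called for 98 genes with spike-in scaling and for 330 to 598 without 1 library. More negative, it was called for 564 genes with all kept cells, 382 with spike-in scaling, 1628 with no filter and 405 to 772 without 1 library. The X-linked share differed by -0.677 percentage points with all kept cells, against -0.264 with class cells. Genes detected per cell reversed without thinning, with 1466 more genes in late cells, where late cells had more UMIs. Deviations of same-numbered late and early libraries from their group means had correlations of -0.06, 0.08 and 0.41 over 7209 genes. Differently numbered libraries gave correlations from -0.56 to 0.49, so these values cannot show whether the numbers pair the samples. A replicate block gave 3647 higher and 2885 lower genes, and 580 and 860 for the genotype difference. Apart from these counts, the cause of each change was not tested. With 3 libraries a group, permutation cannot give a p under 0.1, and early replicate 1 limits the low genes.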

Other observations

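Among genes that do not code for protein, some types rose more often than protein-coding genes and others did not. Of 1036 long intergenic non-coding RNAs tested, 488 rose in late cells (47.1%) and 59 fell, with a median log2 fold change of 1.76, and of 109 bidirectional promoter non-coding RNAs 52 rose and 1 fell. Of 688 antisense genes 285 rose (41.4%) and 41 fell, although their counts are uncertain where strand was not used. Of 13069 protein-coding genes, 2353 rose (18%) and 2591 fell (19.8%), with a median of -0.20 that was 0.39 with spike-in scaling. Of 739 processed pseudogenes 106 rose (14.3%) and 34 fell, of 652 genes of the TEC type 95 rose (14.6%) and 74 fell (median -0.42), of 88 sense intronic genes 10 rose (11.4%) and 12 fell (median -0.83), of 35 microRNA genes 3 rose and 5 fell, and of 31 small nuclear RNA genes 0 rose and 5 fell. For the long intergenic genes the counts were 512 and 57 by collection time alone and 447 and 35 without early replicate 3. The gene types are those of the deposited feature table.

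Ribosomal protein genes changed little beyond the whole transcriptome, with 1 of 83 higher, 9 lower and a median of -0.16 that was 0.57 with spike-in scaling. Of 7 tested genes of the mitochondrial genome list, 1 fell and 0 rose, with a median of -0.53 that was 0.10 with spike-in scaling.

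Haemoglobin RNA differed between libraries without following the stage. Hbb-bs had 1963, 1529 and 27 UMIs in late libraries and 558, 0 and 84 in early ones, and it was found in 83 of the 83 cells of late replicate 1 and 25 of the 25 cells of early replicate 1.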
